A study of Mus musculus with 18 samples.

Results

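The genes described here are the mouse genes whose symbol begins with Zfp, a naming series for zinc finger proteins, that gave a signal on the arrays. A gene was taken when a probe set carried a single symbol beginning with Zfp in the platform annotation. The brightest probe set stood for its gene, and genes were chosen by level, being kept when that probe set had a mean of at least 6 on the log2 scale over all 18 arrays. Of 338 such genes, 273 were kept and 65 lay below the limit, with Zfp874a left out by rule. They form part of 18193 genes with a usable probe set, of which 12057 reached the same level. The level alone chose them, so the levels are given as a description, and only differences between groups were tested.

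Gene expression was measured in whole palate of mouse embryos at embryonic day 15.5 on Affymetrix arrays, 6 per group. The mutant posterior palates came from Tgfbr2 fl/fl;K14-Cre embryos, in which a Cre recombinase under the keratin 14 promoter removes the TGF-beta receptor gene Tgfbr2 from epithelial cells. The control posterior palates and the control anterior palates came from Tgfbr2 fl/fl embryos, which carry the floxed receptor alleles without Cre. All are labelled as strain C57BL/6J with sex not determined and no treatment. The floxed alleles are shared by all 3 groups. Mutant and control embryos came from different litters, per the series' design text, so genotype and litter cannot be told apart. The tissue was whole palate while the deletion is confined to cells with keratin 14 promoter activity, and in such bulk samples fewer cells of a type and less RNA per cell cannot be told apart. Nothing in the labels says which arrays share an embryo or whether a sample was a pool, and the p-values therefore cover only how far these samples vary, which may be technical variation.

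Most Zfp proteins carry C2H2 zinc fingers, loops held by a zinc ion that read short stretches of DNA, usually several in a row. Many also have a KRAB domain, which recruits the corepressor TRIM28 and with it enzymes for repressive chromatin, and a well-known task of such proteins is to silence transposable elements and to keep imprinted marks. KRAB zinc finger genes arose by repeated duplication and lie in runs of related neighbours on a few chromosomes. The symbol also covers proteins of other kinds, such as Zfp36 and its relatives, whose CCCH fingers bind AU-rich elements of mRNA and promote its decay.

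The 273 genes lie on 20 chromosomes, with 60 on chromosome 7 and 38 on chromosome 17 in the RefSeq table of assembly GRCm38.p6. Their mean levels ran between 6.01 and 11.7 with a median of 7.70, and the quartiles were 6.92 and 8.58. The median over all genes at this level was 8.54. There were 114 genes with a mean of at least 8, 16 with at least 10 and 73 with less than 7. Just above the limit lay Zfp759 at 6.01, Zfp94 at 6.03 and Zfp3 at 6.07, and just below it Zfp385a at 5.99, Zfp668 at 5.98 and Zfp874b at 5.97. In 256 of the 273 genes each of the 3 groups had a mean of at least 6, and the other 17 passed without it. The brightest probe sets were those of Zfp36l1, Zfp622, Zfp266, Zfp207 and Zfp46, with means of 11.7, 11.7, 11.1, 10.7 and 10.5. Probe sets differ in response, so this order ranks signals and not amounts of RNA. Replicates were tight in the controls: the median SD over the 273 genes was 0.212 across mutant posterior arrays, 0.112 across those of control posterior and 0.141 across those of control anterior palate.

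The promoters of 5 genes on chromosome 17 are shown because most Zfp genes of their run fell together in the mutants, while Zfp983 rose. Each is RefSeq sequence of GRCm38.p6, 250 bases before the start of the gene and 50 after it, on the coding strand. RefSeq promoters were at hand for 220 of the 273 genes. Zfp943, at chr17:21962309-21962608 on the plus strand, and Zfp758, at chr17:22361213-22361512 on the plus strand, share an identical stretch of 248 bases, given in capitals. In Zfp994, at chr17:22225565-22225864 on the minus strand, Zfp213, at chr17:23564177-23564476 on the minus strand, and Zfp983, at chr17:21650361-21650660 on the plus strand, the letters CCAAT or their reverse complement ATTGG are in capitals.
Zfp943: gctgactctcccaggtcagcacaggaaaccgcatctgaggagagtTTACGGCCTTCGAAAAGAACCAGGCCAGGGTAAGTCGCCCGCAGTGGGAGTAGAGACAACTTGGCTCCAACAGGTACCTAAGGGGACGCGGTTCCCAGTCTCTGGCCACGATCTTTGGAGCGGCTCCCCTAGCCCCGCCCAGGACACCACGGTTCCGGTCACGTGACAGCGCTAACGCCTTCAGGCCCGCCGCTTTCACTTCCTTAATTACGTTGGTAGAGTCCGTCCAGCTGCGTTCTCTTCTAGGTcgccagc
Zfp758: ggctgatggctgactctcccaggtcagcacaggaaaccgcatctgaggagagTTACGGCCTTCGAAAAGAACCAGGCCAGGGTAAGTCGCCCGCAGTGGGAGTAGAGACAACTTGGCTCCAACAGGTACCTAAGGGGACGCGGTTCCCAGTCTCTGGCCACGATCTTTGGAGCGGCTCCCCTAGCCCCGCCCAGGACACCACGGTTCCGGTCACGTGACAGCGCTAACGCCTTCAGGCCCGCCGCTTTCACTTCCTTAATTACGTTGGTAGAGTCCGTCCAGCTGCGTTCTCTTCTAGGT
Zfp994: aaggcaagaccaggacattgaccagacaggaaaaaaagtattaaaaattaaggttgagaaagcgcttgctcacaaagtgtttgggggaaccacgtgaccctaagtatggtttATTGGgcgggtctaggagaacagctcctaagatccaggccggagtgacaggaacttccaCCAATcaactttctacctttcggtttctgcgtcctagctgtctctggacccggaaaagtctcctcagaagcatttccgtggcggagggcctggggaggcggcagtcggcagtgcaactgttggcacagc
Zfp213: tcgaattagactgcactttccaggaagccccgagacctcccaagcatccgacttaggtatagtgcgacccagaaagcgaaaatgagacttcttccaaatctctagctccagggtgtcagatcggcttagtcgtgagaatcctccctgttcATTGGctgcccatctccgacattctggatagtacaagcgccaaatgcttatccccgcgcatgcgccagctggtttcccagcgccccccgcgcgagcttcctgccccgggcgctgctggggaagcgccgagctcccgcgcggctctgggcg
Zfp983: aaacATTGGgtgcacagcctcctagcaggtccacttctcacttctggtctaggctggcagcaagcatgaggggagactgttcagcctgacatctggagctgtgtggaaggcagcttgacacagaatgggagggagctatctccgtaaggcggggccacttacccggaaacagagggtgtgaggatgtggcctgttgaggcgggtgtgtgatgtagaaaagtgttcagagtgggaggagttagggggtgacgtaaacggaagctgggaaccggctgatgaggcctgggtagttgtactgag

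The first comparison asked how Zfp genes differ in posterior palate when epithelium lacks the receptor. Most of the Zfp genes called were lower in the mutants. Of the 273 genes, 64 were lower and 19 were higher in mutant posterior than in control posterior palate at an adjusted p under 0.05 (limma, Benjamini-Hochberg over 18193 genes), which is 30.4% of them. In the same test 13.5% of all genes were called, 7.73% higher and 5.73% lower, and among all genes with a mean of at least 6 the shares were 17.8%, 9.84% and 8%. The median log2 difference was -0.09 over the Zfp genes and 0.04 over all genes. Of the 83 calls, 71 were among the 256 genes that reached 6 in each group (27.7%, 18 higher and 53 lower). The other 12 passed the level limit only through the group where they were high. Without them the lower calls go from 64 to 53 and the higher calls from 19 to 18, so nearly all were lower. Controls make up most of the 18 arrays, so the limit keeps genes low in the mutants more readily than genes high in them. Differences lay between -1.58 and 1.14, and 14 of the called genes differed by at least 2-fold, of which 8 reached 6 in each group. The count depended on the controls and on sets of arrays: it was 17 with control posterior arrays 1 to 3 only, where 1.43% of all genes were called, and 33 with 4 sets of arrays (1 to 3 and 4 to 6 of each genotype) as a random block, where 3.23% were called. For 47 of the Zfp genes (17.2%) the mutant and control arrays did not overlap at all, against 6.55% of all genes and 8.99% of those with a mean of at least 6.

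The mean over the 273 genes, taken array by array, was 7.64, 7.76, 7.71, 7.76, 7.75 and 7.81 in the mutant posterior arrays, against 7.89, 7.89, 7.89, 7.89, 7.89 and 7.90 in the control posterior arrays. Every mutant array lay below every control array. These means include the 17 genes without a mean of 6 in each group, and were not taken without them. Over all genes with a mean of at least 6 the array means overlapped, at 8.59 to 8.77 in mutant posterior and 8.62 to 8.72 in control posterior arrays.

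**Figure D1:**
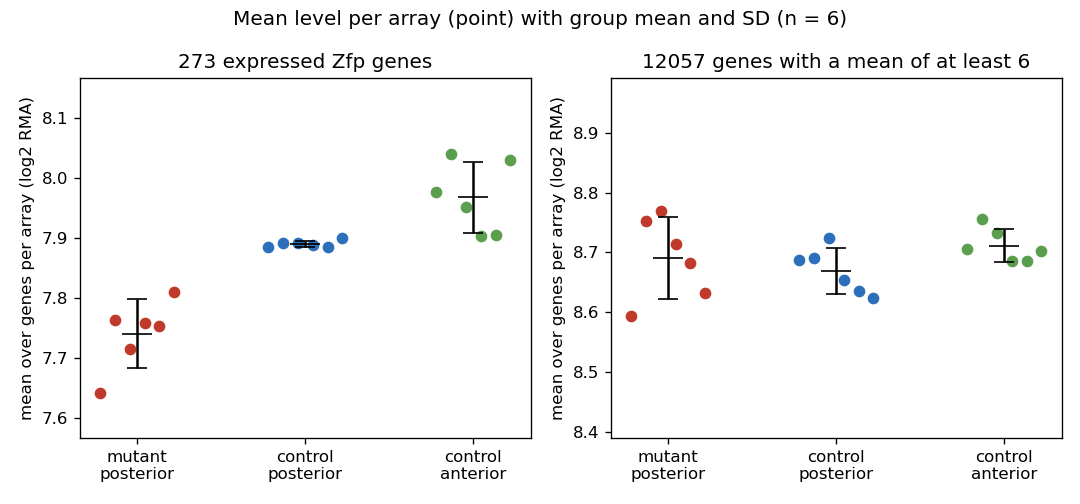
Mean log2 level per array (points) with group mean and SD (bars, n = 6), for the 273 Zfp genes on the left and for the 12057 genes with a mean of at least 6 on the right. For the Zfp genes the mutant posterior arrays sit at 7.64 to 7.81, below all control posterior arrays at 7.89 to 7.90, while for all such genes the groups overlap.

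Technical controls also separated the groups. Labelling spike-in RNAs averaged 6.79 to 8.28 in mutant posterior arrays, against 8.77 to 10.2 in control posterior arrays, with no overlap. Hybridisation spike-in RNAs averaged 11.1 to 11.7 in mutant arrays 1 to 3 and 10.4 to 10.5 in mutant arrays 4 to 6, a split that the labels do not name. Control posterior arrays split in the same places, at 10.24 to 10.28 in arrays 1 to 3 and 10.61 to 10.69 in arrays 4 to 6, with labelling spike-ins at 8.77 to 8.98 and 10.01 to 10.22. In the genotype comparison 13.5% of all genes were called, and 17.8% of those with a mean of at least 6. Of 7 skeletal muscle markers 1 was called higher, and all 7 differed upwards with a median of 0.93. Their mean was 9.22 to 12.1 in mutant posterior and 9.14 to 10.3 in control posterior arrays. Of 8 stratified epithelium markers 1 was called higher, but only 2 of the 8 differed upwards and the median was -0.28. Their means were 9.52 to 11.9 in mutant posterior and 10.8 to 11.6 in control posterior arrays. Erythroid markers, of which Hba-a1 lay under 6 over all arrays, averaged 6.96 to 8.82 in mutant posterior and 8.11 to 8.64 in control posterior arrays, and 2 of 5 were lower, the larger difference being -2.93. The other 3 of the 5 differed upwards without a call, and the median difference was 0.06. Bone markers averaged 10.25 to 11.97 in mutant posterior and 9.71 to 10.4 in control posterior arrays, and 1 of 3 was higher, by 2.54. Of 3 Schwann cell and nerve markers 1 was higher, the only 1 that differed upwards, and the median was -0.60. Their means were 5.94 to 10.7 in mutant posterior and 8.31 to 9.14 in control posterior arrays. None of 4 cartilage markers was called, with a median difference of 0.99 and means of 8.06 to 9.95 in mutant posterior and 7.58 to 8.35 in control posterior arrays. Of 7 macrophage and leukocyte markers 1 was higher and 1 lower, and none of 5 endothelial or 7 palate mesenchyme markers was called in limma. In the other lists no marker had a mean under 6 over all arrays. The part of these differences in the Zfp result was not tested.

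Most of the largest decreases belonged to clustered genes of chromosomes 17, 13 and 7. Zfp995 read 5.86, 6.65 and 7.25 (lowest, median and highest array) in mutant posterior palate, against 7.96, 8.24 and 8.42 in control posterior palate. All mutant arrays were lower than all controls, and arrays 1 to 3 were the lowest of the mutants. The log2 difference was -1.58 (SE 0.20, adjusted p = 9.71e-05, limma), a level 2.99-fold lower in the mutants. Zfp994 read 5.27, 5.68 and 5.87 in mutant posterior palate, against 6.93, 7.09 and 7.24 in control posterior palate. The groups lay more than a log2 unit apart, and all mutant arrays were below 6, near the array medians of 5.77 to 5.90 over all probe sets in those arrays. This gene, like Zfp944, Zfp708, Zfp141, Zfp429 and Zfp317, had a mutant mean under 6 and passed the level limit through the control groups, and no detection call was used. Its difference was -1.46 (SE 0.09, adjusted p = 2.61e-08). Zfp944 was at 5.37, 5.83 and 6.41 in mutant posterior arrays and at 7.08, 7.20 and 7.33 in control posterior arrays. It was lower in all 6 mutant arrays, by -1.33 (SE 0.17, adjusted p = 9.61e-05). Zfp708, in a chromosome 13 run, was at 5.17, 5.85 and 6.05 in mutant posterior arrays and at 6.80, 6.93 and 7.21 in control posterior arrays. The groups were again apart, with a difference of -1.24 (SE 0.14, adjusted p = 3.95e-05).

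Zfp593 lies outside the runs, and its yeast relative takes part in exporting the large ribosomal subunit from the nucleus. It read 7.94, 8.09 and 8.30 in mutant posterior palate, against 9.20, 9.46 and 9.61 in control posterior palate. Mutant arrays were tightly grouped and all lower, with a difference of -1.35 (SE 0.11, adjusted p = 6.88e-07, limma). The other decreases among the 10 largest without overlap were Zfp141 (-1.21), Zfp429 (-1.19), Zfp942 (-1.16), Zfp317 (-1.13) and Zfp52 (-1.11). With only control posterior arrays 1 to 3, Zfp141, Zfp942 and Zfp317 were no longer called. Of the 83 called genes, 57 were called in every fit that left out 1 array, and 16 were called under every alternative fit, among them Zfp995, Zfp994, Zfp593, Zfp944, Zfp708, Zfp429 and Zfp52.

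**Figure D2:**
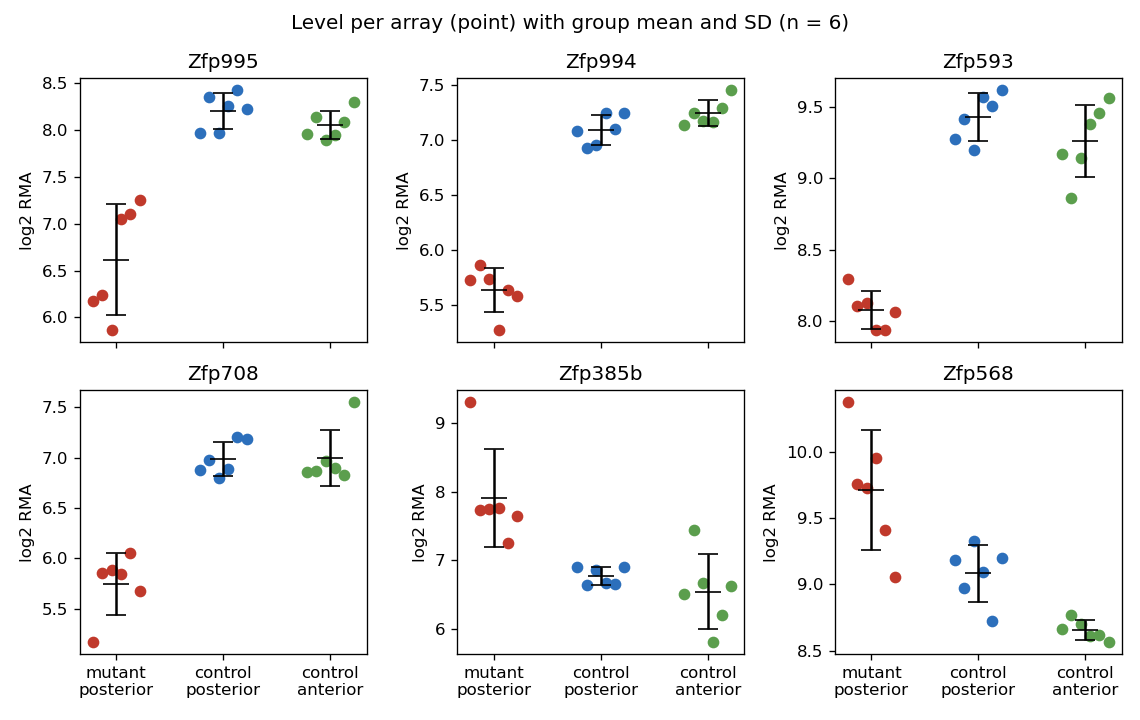
Log2 level per array (points) with group mean and SD (bars, n = 6) for 6 Zfp genes in mutant posterior, control posterior and control anterior palate. Zfp995, Zfp994, Zfp593 and Zfp708 are lower in all 6 mutant arrays than in any control array, Zfp385b is higher in all 6 than in any control posterior array with 1 array at 9.30, and Zfp568 overlaps.

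Increases were fewer and smaller. Zfp385b, a relative of the p53 partner Zfp385a, read 7.24, 7.74 and 9.30 in mutant posterior palate, against 6.64, 6.75 and 6.90 in control posterior palate. All mutant arrays were higher, and 1 of them stood far above the rest. The difference was 1.14 (SE 0.28, adjusted p = 0.0127, limma), and it was 0.86 to 1.27 when 1 array was left out. Zfp983 read 6.22, 6.46 and 6.71 in mutant posterior arrays and 5.78, 6.02 and 6.14 in control posterior arrays. Its groups did not overlap, with a difference of 0.48 (SE 0.09, adjusted p = 0.00258). Increases without overlap were also called for Zfp148 (0.40), Zfp354c (0.37), Zfp592 (0.34), Zfp655 (0.30) and Zfp687 (0.29), of which Zfp655 lost its call without control posterior replicate 5.

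Mutant arrays 1 to 3 and 4 to 6 differed for several genes. Against the same 6 control posterior arrays, Zfp995 differed by -2.10 with mutant arrays 1 to 3 alone and by -1.06 with mutant arrays 4 to 6 alone, and Zfp229 by -1.75 and -0.41. Zfp503, a transcriptional regulator of the NET family, read 8.30, 8.44 and 8.10 in mutant arrays 1 to 3 and 10.1, 10.7 and 10.9 in mutant arrays 4 to 6, against 10.50 to 10.76 in control posterior arrays. Mutant arrays 1 to 3 were far below the controls, and the others were near them. Over all 6 mutant arrays its difference of -1.20 did not pass the test (SE 0.39, adjusted p = 0.0511, limma). Zfp62 read 6.06, 5.93 and 6.15 in mutant arrays 1 to 3 and 7.89, 7.89 and 8.04 in mutant arrays 4 to 6, against 7.81 to 8.59 in control posterior arrays. The same 3 mutant arrays were low here. Its call (-1.17, SE 0.35, adjusted p = 0.0336, limma) was lost without mutant replicate 1, 2 or 3, and without control posterior replicate 2, 4, 5 or 6. Zfp994 and Zfp593 did not show such a split, with -1.31 and -1.25 for mutant arrays 1 to 3 and -1.60 and -1.45 for mutant arrays 4 to 6. All 83 called genes kept their sign in each set of mutant arrays, and 51 were called with either set alone. Both sets were compared with the same controls.

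Calls were more frequent inside runs of neighbouring Zfp genes. Runs were built from the 419 Zfp-named genes of the RefSeq table, joining neighbours whose starts lay at most 500 kb apart, and 18 runs held at least 3 of the 273 genes. Of the 128 genes in these runs, 44 were lower and 7 higher (39.8% called, median -0.16), and of the 145 genes outside them 20 were lower and 12 higher (22.1%, median -0.02), where 13.5% of all genes were called. Inside the same spans lay 72 other expressed genes without a Zfp name, of which 3 were higher and 3 lower (8.33%), with a median of 0.03. They were spread unevenly: the chromosome 7 runs of Zfp553 and Zfp180 held 17 and 14 of them. The chromosome 17 run of Zfp160 held 1 and the chromosome 8 runs 0. In the chromosome 13 run 2 of 5 were lower, Mterf3 and Rsl1. The pooled share therefore says little about neighbours in the runs that fell most. The difference between genes inside and outside runs is a description with no test of its own. The runs include genes that passed the level limit through the control groups, among them Zfp994, Zfp944, Zfp708, Zfp429 and Zfp141. They were not counted again without these genes.

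**Figure D3:**
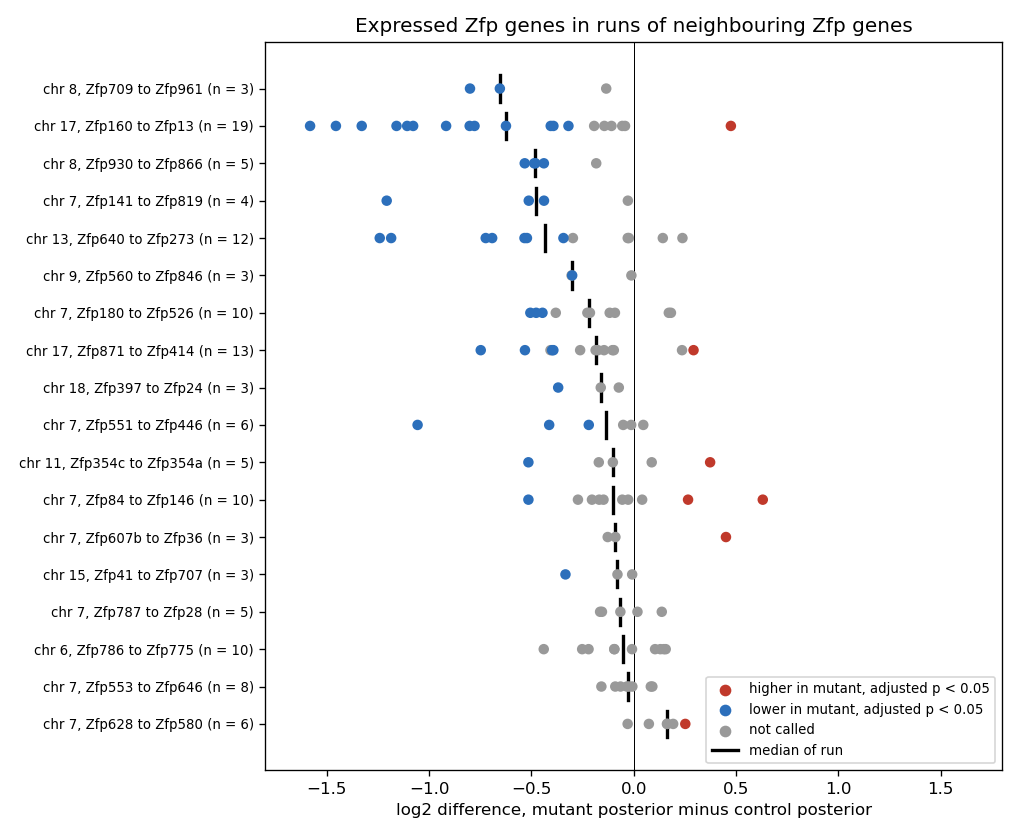
Log2 difference of mutant minus control posterior for each Zfp gene (points) in the 18 runs, with the median of the run as a bar; colour marks genes called higher, called lower or not called. Medians range between -0.65 in the chromosome 8 run of Zfp709 and 0.16 in the chromosome 7 run of Zfp628.

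The run with most members lies on chromosome 17 between Zfp160 and Zfp13. It holds 23 Zfp genes, 19 of them among the 273, and 13 were lower and 1 was higher in the mutants, with a median of -0.62. The difference was negative in 18 of the 19. Zfp994 and Zfp944, counted here, had a mutant mean under 6. In 6 genes next to each other, Zfp995, Zfp942, Zfp943, Zfp994, Zfp944 and Zfp758, the differences were -1.58, -1.16, -0.78, -1.46, -1.33 and -0.92. Nearer one end, Zfp52 and Zfp229 differed by -1.11 and -1.08, and Zfp213 by -0.80 at the other. The exception among the 19, Zfp983, lies between Zfp948 (-0.04, not called) and Zfp760 (-0.19, not called). Of the 23 Zfp genes of the run 22 were measured, and those with a mean below 6 are not counted here. The calls of Zfp53 and Zfp820 were the least stable here: they held in 14 and 10 of the 18 fits that left out 1 array. That of Zfp53 was lost without mutant replicate 3 or control posterior replicate 4, 5 or 6, and that of Zfp820 without mutant replicate 2, 4 or 5 or control posterior replicate 2 to 6. In control posterior against control anterior palate, which shares the control posterior arrays, none of the 19 was called and their median was 0.02.

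**Figure D4:**
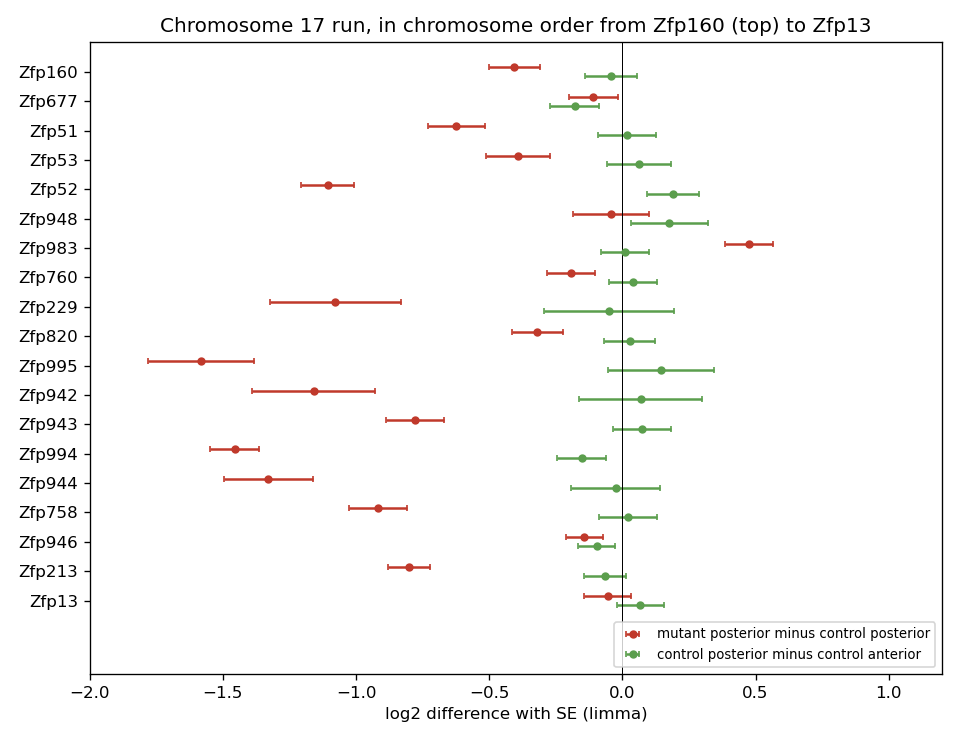
Log2 difference with its SE for the 19 Zfp genes of the chromosome 17 run, in chromosome order, for mutant minus control posterior and for control posterior minus control anterior. The genotype differences reach -1.58 at Zfp995 and lie below 0 for all but Zfp983, while the region differences stay between -0.18 and 0.19.

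The promoters shown above belong to this run. Zfp942 and Zfp943 lie head to head on opposite strands, and their promoter windows share 194 bases. The windows of Zfp944 and Zfp758 share 162 bases in the same arrangement, and all 4 genes were lower in the mutants. Zfp943 read 7.77, 8.06 and 8.33 in mutant posterior palate, against 8.62, 8.79 and 9.06 in control posterior palate, and Zfp758 read 6.32, 6.74 and 7.12, against 7.50, 7.62 and 7.84. For both genes every mutant array was below every control array. Probes of such alike genes can cross-react, and where each probe lies was not examined. Over all pairs of promoters in the run the median identity was 45.7%. The letters CCAAT, read on both strands, stood in 63.0% of the 54 promoters of genes that were lower, 42.9% of the 14 of genes that were higher and 43.4% of the 152 of genes not called, against 39.0% of all protein-coding promoters of that length. Windows that overlap or are alike count separately here, and the shares were not tested against each other. Among the promoters shown, those of Zfp943 and Zfp758, which fell, lack these letters, and that of Zfp983, which rose, holds them. A palindromic SMAD-type motif GTCTAGAC stood in 1 of the 220 Zfp promoters (0.455%), against 0.212% of all. These letters are a description of the windows and not of bound sites.

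The second large run lies on chromosome 13 between Zfp640 and Zfp273, with 25 Zfp genes and 12 of the 273. Of these 7 were lower and none was higher, with a median of -0.43. Zfp708 and Zfp429, counted here, had a mutant mean under 6. Zfp708 and Zfp429 led, followed by Zfp748, which read 7.26, 7.56 and 7.69 in mutant posterior palate, against 8.08, 8.26 and 8.38 in control posterior palate. Its mutant arrays were all below the controls (-0.72, SE 0.08, adjusted p = 3.95e-05, limma). Rsl1 lies in the same run without a Zfp name; it is a KRAB zinc finger repressor of male-specific liver genes. It read 4.67, 6.39 and 7.18 in mutant posterior palate, against 7.90, 7.997 and 8.16 in control posterior palate. Mutant arrays were all lower and spread widely, with a difference of -1.81 (SE 0.29, adjusted p = 0.00083, limma).

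Other runs differed among themselves. On chromosome 8, 4 of 5 genes between Zfp930 and Zfp866 were lower (median -0.48) and 2 of 3 between Zfp709 and Zfp961 (median -0.65). On chromosome 7, 3 of 4 genes between Zfp141 and Zfp819 were lower (median -0.48), as were 3 of 10 between Zfp180 and Zfp526 and 3 of 6 between Zfp551 and Zfp446. The second chromosome 17 run, between Zfp871 and Zfp414, had 4 lower and 1 higher of 13. By contrast, none of 10 genes was called on chromosome 6 between Zfp786 and Zfp775 (median -0.05), and none of 8 on chromosome 7 between Zfp553 and Zfp646 (median -0.03). The chromosome 7 run between Zfp84 and Zfp146 had 2 higher and 1 lower of 10, with Zfp568 highest.

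Of 24 genes listed for a known role, 21 were among the 273, and of these 3 were higher in the mutants and none was lower, where 13.5% of all genes were called. Zfp568, the first of the 3, is a KRAB protein needed in the mouse embryo, where it represses a placental transcript of Igf2. It read 9.06, 9.74 and 10.4 in mutant posterior palate, against 8.72, 9.14 and 9.33 in control posterior palate. The groups overlapped in a single mutant array, and the difference was 0.63 (SE 0.16, adjusted p = 0.0147, limma). A fainter probe set of the same gene was 1.10 higher (adjusted p = 0.0222). Zfp36, the mRNA decay factor tristetraprolin, read 7.39, 7.72 and 8.05 in mutant posterior palate, against 7.01, 7.29 and 7.48 in control posterior palate. It was higher with a slight overlap (0.45, SE 0.10, adjusted p = 0.00894), while its relatives Zfp36l1 (-0.25, adjusted p = 0.0808) and Zfp36l2 (0.17, adjusted p = 0.179) were not called. Zfp148, which binds GC-rich promoter boxes, was higher by 0.40 by its brightest probe set (adjusted p = 0.0114), while its 5 other probe sets were not called and differed by -0.40 to 0.29. Zfp281, which binds similar boxes, differed by 0.07 (adjusted p = 0.618).

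The other 18 were not called, and Zfp57, which guards imprinted marks, Zfp365 and Zfp385a lay below 6. Zfp423, a multi-finger factor that binds SMAD proteins in BMP signalling, read 7.85, 7.998 and 8.43 in mutant posterior palate, against 7.31, 7.59 and 7.82 in control posterior palate. The groups did not overlap, yet the difference of 0.49 missed the threshold (SE 0.16, adjusted p = 0.0502, limma). Its relative Zfp521 differed by -0.04 (adjusted p = 0.944) with a mutant range of 9.56 to 11.5. Zfpm2, the GATA cofactor FOG2, differed by 0.59 (adjusted p = 0.186), and Zfp462 by -0.44 (adjusted p = 0.135). Some of these depended on the set of mutant arrays: with arrays 1 to 3 and with arrays 4 to 6 alone, Zfp521 differed by -0.75 (adjusted p = 0.0216) and 0.66 (adjusted p = 0.0628). Zfp462 differed by -0.90 (adjusted p = 0.000369) and 0.01 (adjusted p = 0.971) in the same fits. For Zfp36l1 the values were -0.47 (adjusted p = 5.21e-05) and -0.02 (adjusted p = 0.846), and for Zfpm2 0.93 (adjusted p = 0.0296) and 0.24 (adjusted p = 0.601). Zfp750, a regulator of epidermal differentiation, read 6.72, 7.48 and 8.01 in mutant posterior palate, against 7.11, 7.20 and 7.31 in control posterior palate. Its mutant arrays lay on both sides of the controls (0.19, adjusted p = 0.525). Zfp809, a KRAB protein that silences murine leukaemia virus through TRIM28, differed by -0.02 (adjusted p = 0.881).

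Partners of KRAB proteins were counted beside them. Of 20 measured genes of the corepressor list 1 was higher and 3 were lower, where 13.5% of all genes were called. The maintenance DNA methyltransferase Dnmt1 was higher by 0.48, and the histone methyltransferase Suv39h2, the deacetylase Hdac1 and the ATPase Morc3 were lower at -0.50, -0.45 and -0.33. Trim28 itself read 12.08, 12.19 and 12.41 in mutant posterior palate, against 12.02, 12.11 and 12.23 in control posterior palate. Its groups overlapped, with a difference of 0.08 (SE 0.07, adjusted p = 0.479, limma). Of 6 KRAB or related zinc finger regulators without a Zfp name, Rsl1 and Zik1 (-0.74) were lower, and the imprinted genes Peg3 (0.62) and Zim1 (0.78) were higher.

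Probe sets of a gene often disagreed. The 273 genes have 532 probe sets with a single symbol, of which 378 reached a mean of 6. When every probe set was tested, 85 of the 532 were lower and 33 higher in the mutants (22.2%), against 10.7% of all probe sets (6.44% higher and 4.3% lower). For 125 genes there was a single probe set, and 77 genes had at least 2 that reached 6. In 45 of these 77 all such probe sets had the same sign, 7 had all of them called, 23 had some called, and none had calls in both directions. Over the brightest and the second brightest probe set of the 77 genes, both were called for 8, the brightest alone for 12, the second alone for 9 and neither for 48. Their differences correlated at r = 0.507 across genes, which is a description, since the probe sets share arrays.

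The widest gaps were in Zfp503, Zfp62, Zfp266, Zfp593, Zfp800 and Zfp830. For Zfp503 the brightest probe set differed by -1.20 and the other by -0.03, and for Zfp62 the values were -1.17 and 0.10. Both probe sets of Zfp593 were lower, by -1.35 and -0.43. For Zfp830 the brightest probe set did not differ beyond its error (-0.05, SE 0.09), while 2 fainter ones were lower by -0.87 (adjusted p = 0.0137, limma) and -0.53 (adjusted p = 0.0476). For Zfp800 a fainter probe set was lower by -0.85 (adjusted p = 0.00864), against 0.06 for the brightest. Zfp995 was lower by both its probe sets, at -1.58 and -1.40. Probe sets whose array name ends in _s_at or _x_at can match several transcripts or related genes. They stood for 22 of the 273 genes, of which 9 were lower and none higher, and 239 genes stood on plain _at probe sets, of which 55 were lower and 16 higher.

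**Figure D5:**
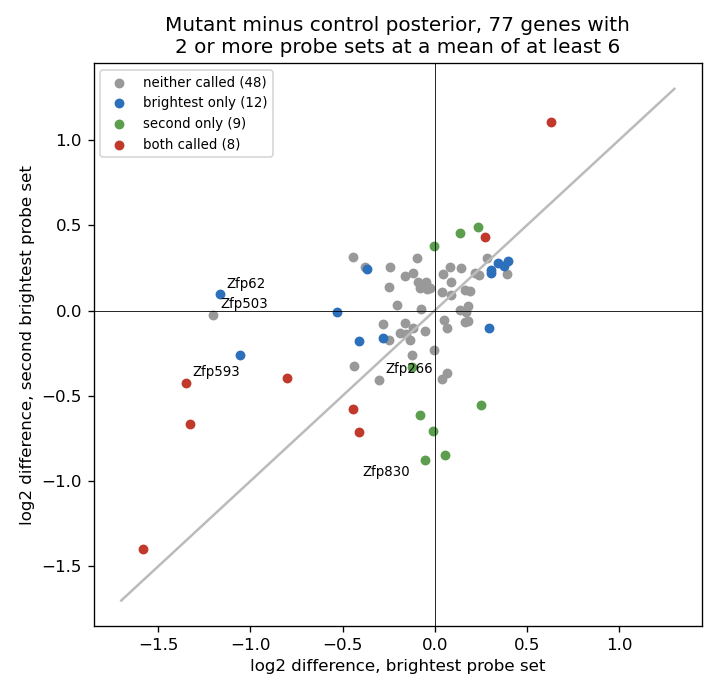
Log2 difference of mutant minus control posterior for the brightest (horizontal) and second brightest (vertical) probe set of 77 Zfp genes; the grey line marks equal values and colour marks which was called. Zfp62 and Zfp503 lie far from the line near 0 on the vertical axis, and 48 genes have neither probe set called.

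The second comparison set control posterior against control anterior palate. In the reported fit, which has no term for pairing, few Zfp genes were called between these regions. There 6 of the 273 were lower in posterior palate and none was higher (2.2%), where 3.82% of all genes were called, 1.7% higher and 2.12% lower, and 4.62% of those with a mean of at least 6, 2% higher and 2.62% lower. With the replicate number as a block the count was 42, where 17.3% of all genes were called. The median difference was -0.08. The 6 were Zfp612 (-0.49), Zfpm1 (-0.40), Zfp579 (-0.37), Zfp217 (-0.32), Zfp618 (-0.26) and Zfp113 (-0.20). Zfp217, a repressor that works with corepressor complexes, read 8.67, 8.82 and 8.97 in control posterior palate, against 8.98, 9.18 and 9.31 in control anterior palate. The groups came close without overlapping (SE 0.09, adjusted p = 0.0487, limma). Zfp618 read 8.60, 8.70 and 8.79 in control posterior palate, against 8.81, 8.96 and 9.15 in control anterior palate. Posterior arrays were again all lower (SE 0.07, adjusted p = 0.0359). Zfpm1, the GATA cofactor FOG1, read 5.99, 6.16 and 6.40 in control posterior palate, against 6.32, 6.58 and 6.79 in control anterior palate, with some overlap. None of the 6 was called between genotypes, a comparison that shares the control posterior arrays. Control posterior and anterior arrays were apart for 16 genes (5.86%), against 6.32% of all genes and 7.7% of those with a mean of at least 6. Over the 532 probe sets 1 was lower and none higher (0.188%), where 1.86% of all probe sets were called, 0.857% higher and 1% lower.

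This regional count was unstable. Deviations of control arrays with equal replicate numbers correlated above 0.1 in all 6 pairs, although in only 3 pairs was that the closest match. Labelling spike-ins split control anterior arrays too, at 8.75 to 8.87 in arrays 1 to 3 and 9.79 to 10.48 in arrays 4 to 6. Pairing and a shared set of arrays therefore cannot be told apart. With the replicate number as a block 42 Zfp genes were called, 6 higher and 36 lower, where 17.3% of all genes were called in that fit. No call remained without control anterior replicate 2 or without control posterior replicate 2, 4, 5 or 6. In those fits 2.14% to 2.78% of all genes were called. Without control anterior replicate 3 or 4 there was 1 call (2.52% and 2.62% of all genes), and without control anterior replicate 1 there were 2 (2.43%). Leaving out mutant replicate 1 or 2, which enter only the shared spread, gave 13 and 11, where 6.67% and 4.47% of all genes were called. All 7 skeletal muscle markers were higher in control posterior palate, with list means of 9.14 to 10.3 in control posterior and 5.42 to 7.75 in control anterior arrays, and the part of this in the Zfp values was not tested. Of the 6 genes, only Zfp579 lies in a run.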

How the data were processed

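Values were used as deposited: log2 expression per probe set, which the authors made with RMA per the submitters' processing notes (no version given). RMA forces arrays towards a common distribution, so a shift shared by most genes would be removed. No detection call entered, and the number of arrays limits the precision. The design text names n = 5 a group, whereas 6 samples a group are labelled; none was dropped.

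Of 45101 probe sets, 64 were controls. Outside these, 34945 had 1 symbol in the platform annotation, 932 had several and 9160 were unlisted. The brightest probe set over all arrays stood for each of 18193 genes. All 273 Zfp genes matched the RefSeq gene table (GRCm38.p6), and no symbol changed. Its table of promoters holds 1 window of 300 bases for 220 of them.

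Differences were tested with limma 3.58.1 (lmFit, eBayes, 2-sided) in R 4.3.3 with statmod 1.5.0, fitting all 3 groups together without covariates, which leaves 15 residual degrees of freedom. Adjusted p is Benjamini-Hochberg over all 18193 genes, or over all probe sets for probe set values, and calls are at 0.05. On simulated data for the genotype comparison over 18193 genes, 59% of genes changed by 0.5 and 87% of those changed by 1 were recovered, with 6.41% of calls false. For the region comparison the shares were 59%, 92% and 1.31%. In each simulation 200 genes were changed, and noise was drawn independently for every array with the same spread in all groups. In the real data, arrays of the same set correlated at 0.26, and the median SD of Zfp genes was 0.212 in mutant and 0.112 in control posterior arrays. These shares therefore need not hold for the real arrays. Tables and plots used Python 3.11.15 and matplotlib 3.10.9.

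The genes, lists and runs were chosen with earlier results of these data known. Genes named in the text are the 10 largest non-overlapping genotype calls per direction, the 5 largest for region, the 5 brightest, the leading gene of each run and all genes of runs with 3 calls, the 6 widest probe set gaps, a list of genes with known roles and the neighbours of the limit, 124 genes in all. Other lists name up to 3 called members, or all 4 in the corepressor list and in the small regulator list, chosen after their values were seen.

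Pairing by replicate number was checked before calls were compared. Deviations of control posterior and control anterior arrays of equal number correlated at 0.111 to 0.430, above 0.1 in all 6 pairs and highest for the own number in 3. The numbers may therefore pair them, by the data and not the labels, but pairing and a shared set of arrays cannot be told apart. The reported fit has no term for either, and the replicate block is given as an alternative. Between genotypes only 2 of 6 pairs exceeded 0.1. Alternatives were another probe set rule, a filter, centring, other variance models, array weights, fewer arrays, a replicate block, sets of arrays, stricter limits, closer runs and leaving out each array.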

Additional observations from a re-analysis of the deposited data

Results flagged for a closer look

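In 18 of 372 groups of 6 arrays tested among the named genes, the highest or lowest array stood apart from the others by Dixon's test at the 95% level. Chance flags about 1 in 20 groups.

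In mutant posterior palate, replicate 1 was lowest for Zfp2 at 5.06, Zfp719 at 7.50 and Zfp870 at 5.16, and highest for Zfp385b at 9.30 and Zfp592 at 8.14. Zfp329 was highest in mutant replicate 2 at 8.39, and Zfp53 was lowest in mutant replicate 3 at 7.29. In control posterior palate, Zfp719 was lowest in replicate 1 at 8.04, Zfp790 in replicate 2 at 7.16 and Zfp595 in replicate 5 at 6.41. In control anterior palate, replicate 6 was highest for Zfp58 at 8.62, Zfp606 at 8.78, Zfp708 at 7.55 and Zfp709 at 7.58, and lowest for Zfp46 at 10.36. Replicate 2 was highest for Zfp397 at 7.85 and Zfp866 at 8.54, and replicate 3 was lowest for Zfp612 at 6.92.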

How the results depend on the processing

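Genotype counts kept their direction throughout: more Zfp genes were lower than higher in mutant posterior palate in every fit run. Instead of 83, the count was 59 to 95 on leaving out 1 array, where 8.31% to 15% of all genes were called. It was 33 with 4 sets of arrays as a random block (1 higher, 32 lower), where 3.23% were called. With control posterior arrays 1 to 3 only it was 17 (1 higher, 16 lower), where 1.43% were called. At an adjusted p under 0.01 it was 36, and the share of all genes at that limit was not taken. With the replicate block it was 38 (3 higher, 35 lower), where 4.89% of all genes were called. Mutant and control arrays of equal number correlated above 0.1 in only 2 pairs. Centring each array on its median gave 84, where 12.7% of all genes were called. Probe set calls numbered 43 with 4 sets, 54 with the replicate block and 82 to 128 on leaving out 1 array, instead of 118. The shares of all probe sets called in those fits were 2.64%, 4.03% and 6.89% to 11.8%.

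Regional counts moved widely from 6, and so did the share of all genes called, which was 3.82% in the reported fit. Counts were 11 with centring, 54 with array weights and 29 with the 12 arrays compared, where 4.49%, 18.4% and 11.8% of all genes were called. With the replicate block 42 were called and with 4 sets 17, where the shares of all genes were 17.3% and 7.27%. Control posterior arrays 1 to 3 or 4 to 6 only gave 0 and 3, where 0.846% and 2.08% of all genes were called. Control anterior arrays 1 to 3 or 4 to 6 only gave 2 and 0, where the shares were 2.19% and 0.984%. At an adjusted p under 0.01 the count was 0, and the share of all genes at that limit was not taken. An unadjusted p under 0.05 in limma was found for 59 of the 273 Zfp genes and for 3610 of all 18193 genes. Among genes with a mean of at least 7 the count at an adjusted p under 0.05 was 3. On leaving out 1 array it was 0 to 13, where 2.14% to 6.67% of all genes were called. Regional probe set calls, 1 in the reported fit, were 11 with centring, 18 with 4 sets, 34 with 12 arrays, 39 with the replicate block and 0 to 16 on leaving out 1 array. The shares of all probe sets called in those fits were 2.17%, 3.67%, 6.92%, 9.58% and 0.95% to 3.62%. The cause of these shifts was not tested. The number of runs was 16 at 250 kb, and the chromosome 17 run then held 16 of the genes with 11 lower.

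Among named genes, Zfp397 turned to 0.090 (adjusted p = 0.517, limma) with the mean of its probe sets, and Zfp715 to 0.27 (adjusted p = 0.020) with mutant arrays 1 to 3 only. Genes near the level limit are close to background, where differences are compressed. No detection call was used, and probe positions were not examined.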

Other observations

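Among the 65 Zfp genes below the level limit, 5 were higher and 7 lower in mutant posterior palate (18.5%), where 13.5% of all genes were called, 7.73% higher and 5.73% lower. Zfp945, chosen after its values were seen, read 6.49, 6.83 and 7.66 (lowest, median and highest array) in mutant posterior palate, against 5.16, 5.39 and 5.63 in control posterior palate. All mutant arrays were higher, by 1.55 (SE 0.17, adjusted p = 1.72e-05, limma), which is above the largest increase among the 273 genes.

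Zinc finger families with other symbols were counted without a level limit. The share called was 30% of Zbtb and 31.25% of Klf genes, near the 30.4% of the 273 Zfp genes, while the directions differed. Of 40 Zbtb genes, whose proteins pair fingers with a BTB domain, 7 were higher and 5 lower in the mutants, where 13.5% of all genes were called. Zbtb7a read 7.32, 7.67 and 7.88 in mutant posterior palate, against 6.10, 6.39 and 6.84 in control posterior palate. Its groups did not overlap (1.19, SE 0.17, adjusted p = 0.000254, limma), while Zbtb3 (-0.67) and Zbtb14 (-0.61) were lower. Of 16 Klf genes, the Krueppel-like factors, 5 were higher and none lower, led by Klf9 (0.76), Klf2 (0.73) and Klf7 (0.68). Of 10 Zscan genes 2 were lower, Zscan12 (-0.57) and Zscan21 (-0.31), and none of 10 Zkscan genes was called. An unadjusted p under 0.05 in limma was found for 3 of the 10 Zkscan genes and for 5096 of all 18193 genes. The difference between families was not tested.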
